A study of Mus musculus with 2 samples.

Results

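The cells described here were those with at least 1 raw count of Ccl5, the gene of the chemokine CCL5 (RANTES). The members were chosen by this count alone, and numbered 385 of the 42766 cells in the count table (0.90%), 87 of 18374 in the vehicle (VEH) library and 298 of 24392 in the lemborexant (LEM) library. Both libraries came from PSAPP mice, which carry the APPswe/PS1.delta.E9 transgenes and form amyloid plaques, so the VEH animals were transgenic too. Lemborexant blocks both orexin receptors, and mice were gavaged with it daily (30 mg/kg/day) over 1 month, starting when they were 9 months old. VEH mice received vehicle on the same schedule. Live CD45lo CD11b+ DAPI− cells were sorted from the cortex and hippocampus of 1 hemisphere at 10 months. For each treatment, cells from 5 mice, male and female, were pooled and run as 1 library of the 10x 5′ assay, which counts unique molecular identifiers per gene and cell. With 1 library per treatment there was no replicate and no test of the treatment, and a difference between libraries was a difference between 2 pools. The sort on low CD45 would leave out most T cells, NK cells and blood myeloid cells, which carry more CD45.

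CCL5 is a secreted chemokine that draws T cells, NK cells, monocytes and other leukocytes through chemokine receptors such as CCR1 and CCR3. Activated T cells and NK cells are its best known source, and macrophages and microglia make it after signals that engage NF-kB and interferon regulatory factors. Its gene lies on the minus strand of chr11:83525778-83530518 (GRCm38, GENCODE M21), and its main transcript has 3 exons. The cells were therefore parted by any count of 6 lymphoid genes, namely Cd3e, Cd3d and Cd3g of the T cell receptor complex, its constant chain gene Trbc2, and the cytotoxic granule genes Nkg7 and Gzma.

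The libraries held 116229678 (VEH) and 160752298 (LEM) counts, with medians of 5971 and 6034 per cell. Ccl5-positive cells were deeper than Ccl5-negative cells, with medians of 7665 against 5966 counts in VEH and 6932.5 against 6026 in LEM. The share of Ccl5-positive cells was 0.163% in the shallowest 20% of VEH cells by depth and 1.09% in the deepest, and 0.944% and 2.17% in LEM. Xist together with a Y-linked gene, which a droplet with cells of both sexes would give, was counted in 10.3% (VEH) and 11.7% (LEM) of Ccl5-positive cells against 5.32% and 7.18% of the others. Cell names in the table are running numbers, so barcodes shared between libraries could not be counted, and 0 cells had the same count profile in both. Values are counts summed over cells and divided by the total count of the same cells, given as CPM, unless stated otherwise. Ranges in parentheses are exact 95% intervals, Clopper-Pearson for shares and conditional binomial for ratios, and they cover counting error only. The limit given for a share of 0 is instead 3 counts of the total. Counts that gather in few cells vary more than these intervals allow.

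Ccl5-positive cells formed a larger share of the LEM library than of the VEH library. They made up 0.474% of VEH cells (0.379–0.584) against 1.22% of LEM cells (1.09–1.37), which is 2.58-fold or 1.37 (1.02–1.73) on the log2 scale. The level of Ccl5 over all cells was 1.80 CPM in VEH and 10.5 CPM in LEM, with a log2 ratio of 2.54 (2.33–2.75). The level thus differed more than the share. The median Ccl5-positive cell had 1 count in VEH and 2 in LEM, and the mean was 2.40 and 5.64. Exactly 1 count was found in 49 VEH cells (56.3% of the Ccl5-positive cells) and 141 LEM cells (47.3%), which is the edge of the rule. At 5 or more counts there were 8 VEH and 59 LEM cells, and these few cells held 35.4% and 76.7% of all Ccl5 counts. The 3 VEH cells with the most Ccl5 had 27, 11 and 9 counts, and the 3 such LEM cells had 379, 115 and 77. A single LEM cell thus carried 22.6% of that library's 1680 Ccl5 counts. Without the 10 highest cells of each library the log2 ratio of the level was 2.29 (2.02–2.58). With each cell thinned to 2000 counts, which left out 1305 VEH and 1215 LEM shallower cells, 0.269% and 0.686% were positive and the log2 ratio of the shares was 1.35 (0.87–1.85).

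**Figure D1:**
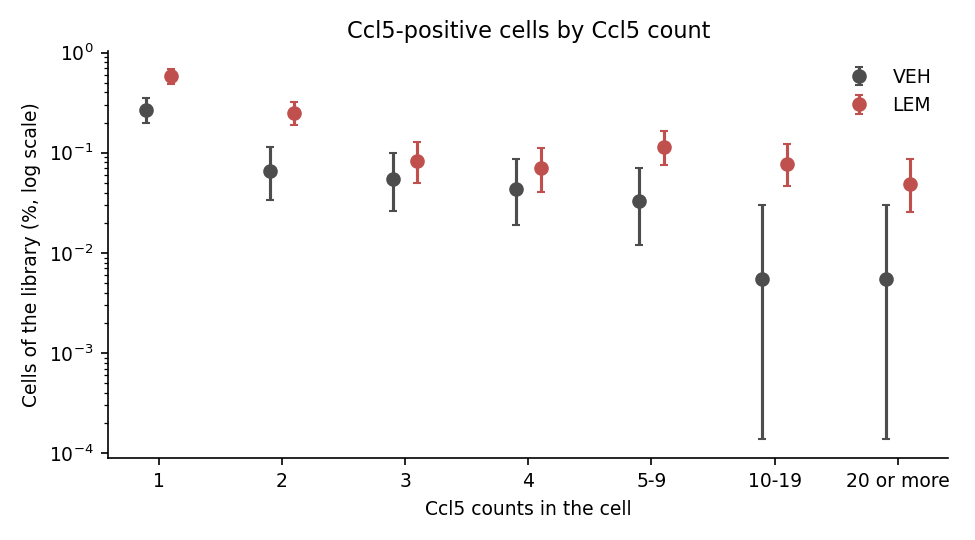
Share of each library's cells (percent, log scale) by the number of Ccl5 counts in the cell, VEH in grey and LEM in red, with exact 95% intervals. LEM lies above VEH in every class, and at 20 or more counts there was 1 VEH cell against 12 LEM cells.

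The difference between the libraries was uneven between the sexes of the pooled mice. A cell counted as female where Xist but no Y-linked gene was seen, and as male in the opposite case. In VEH, 29 of 5686 female cells (0.510%) and 42 of 9025 male cells (0.465%) were Ccl5-positive, a log2 ratio of female over male of 0.13 (−0.60 to 0.85). In LEM the shares were 1.74% (146 of 8409) and 0.793% (89 of 11223), a log2 ratio of 1.13 (0.74–1.53). LEM over VEH was 1.77 (1.18–2.40) in female cells and 0.77 (0.22–1.33) in male cells on the log2 scale. At 5 or more counts of Ccl5 there were 0 of 5686 female and 5 of 9025 male VEH cells, and 24 female and 17 male LEM cells. The 3 highest female LEM cells held 571 of the 1022 Ccl5 counts of female LEM cells. How many mice gave these cells is unknown, since cells were not assigned to animals, and 1 mouse could weigh heavily in either sex.

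None of the Ccl5-positive cells carried a lymphoid marker. Cd3e, Cd3d, Cd3g, Trbc2, Nkg7 and Gzma were counted in 0 of 87 VEH cells, which allows a share of up to 3.45%, and in 0 of 298 LEM cells, which allows up to 1.01%. These limits are on cells with a count, not on cells that express the genes, which at this depth can show 0 counts. The lymphoid-marked part of the rule was therefore empty, no comparison with it could be made, and all 385 members were unmarked. Among the 42381 Ccl5-negative cells, 24 carried a marker (0.0566%), 9 in VEH and 15 in LEM, with 1 count in each. In 22 of these 24 cells the marker was Cd3d. At that share, 0.218 Ccl5-positive cells would be marked, too few to show a depletion. Of 27 further T cell genes, 15 were at 0 counts in the Ccl5-positive cells of both libraries, among them Trac and Trbc1 of the T cell receptor, the coreceptor genes Cd8a and Cd8b1, Cd2, Cd28, the kinase gene Zap70, Thy1 and the transcription factor genes Tcf7 and Lef1. Trac, Trbc1 and Cd8b1 were at 0 in Ccl5-negative cells without a lymphoid marker too, and Cd8a had 1 count there per library. Cd3e, Cd3g, Nkg7 and Gzma were at 0 in all cells of the table. These zeros thus do not set the members apart. The summed T cell list was at 127 CPM (VEH) and 139 CPM (LEM) in Ccl5-positive cells against 150 and 145 CPM in the others, and Il7r, with 188 counts, was its most counted gene. All 4 gamma-delta T cell receptor genes were at 0, as were 12 of 15 NK cell genes, including Ncr1, Klrb1c and Eomes. Of 7 cytotoxic effector genes, Gzmb, Gzmk, Prf1, Fasl and Ifng were at 0.

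The cells carried the defining genes of microglia, as did the other cells of the table. A set of 6 microglial markers was complete in 96.6% (VEH) and 96.3% (LEM) of Ccl5-positive cells, and in 96.8% and 96.3% of the others. The paper excluded clusters with low microglial and high other cell type markers. Whether the deposited cells follow that step is not stated. These genes and the lack of lymphoid ones thus do not set the members apart. C1qa, of the first complement component, was counted in all 87 VEH and all 298 LEM cells, and C1qb in 87 and 297. P2ry12, the ADP receptor of resting microglia, was counted in 85 and 292 of them, and Cx3cr1, the fractalkine receptor, in 86 and 293. Csf1r, the receptor that microglia need to survive, was counted in 87 and 296 of them, and the lysosomal protease gene Ctss in 87 and 295. The monocyte gene Plac8 was counted in 9 VEH and 18 LEM cells, at 26.7 and 11.6 CPM against 3.14 and 4.73 CPM in the others, while Ly6c2 and Chil3 were at 0. The log2 ratio of Plac8 in LEM was −0.51 without the interferon-like cluster. Border-associated macrophage genes were counted in 16.1% and 14.8% of the cells and in 7.45% and 7.55% of the others. Of the choroid plexus list, Ttr (transthyretin) gave 4224 of 4580 LEM counts, all from 3 cells. All 5 neuronal genes were at 0, 2 of 8 B cell genes (Ighm foremost) and 1 of 7 neutrophil genes (S100a9, 1 count) were counted, and dendritic cell genes were at 416 and 375 CPM against 479 and 423 CPM, most of it Fscn1. The astrocyte list stood at 1.33 and 3.32 CPM against 3.15 and 3.83 CPM, and the oligodendrocyte list, with Mbp as its most counted gene, at 76.1 and 72.7 CPM against 57.7 and 61.6 CPM.

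Ccl5-positive cells were found in 15 of 16 clusters, made without Ccl5 and the 6 lymphoid genes. Over both libraries their share was highest in the interferon-like cluster, led by Ifit3b, Ifit3, Ifit1 and Ifit2, where 11 of 543 VEH cells (2.03%, 1.02–3.6) and 57 of 1013 LEM cells (5.63%, 4.29–7.23) were positive. In the DAM-like cluster, led by Cst7, Lpl and Spp1 of the disease-associated microglia program, they were 18 of 1173 VEH cells (1.53%) and 36 of 1562 LEM cells (2.30%). The interferon-like cluster held 12.6% and 19.1% of the Ccl5-positive cells but 2.96% and 4.15% of all cells. The clusters without a name held 60.9% and 64.1% of them, at shares of 0.326% and 0.909%. In the border macrophage-like cluster 2 of 64 VEH cells (3.13%, 0.381–10.8), a higher share than in the interferon-like cluster of that library, and 3 of 113 LEM cells (2.65%) were positive, and in the proliferating-like cluster 3 of 292 and 8 of 548. Cluster 10, of 1340 cells with a median of 3942 counts, had 0, which allows up to 0.224%.

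Choroid plexus-like cells, which should lack the gene, gave a level for RNA from other cells. There 3 of 200 cells were positive (1.5%, 0.310–4.32), at a median depth of 8151.5 counts, all of them among the 150 LEM cells and none among the 50 VEH cells. They had 10, 2 and 1 counts of Ccl5, and the droplet with 10 held both Xist and a Y-linked count. All 3 also carried between 19 and 48 counts of the microglial gene P2ry12, so the reference is an upper bound. The share of the unnamed clusters together, 0.655% (0.576–0.742), lay below it, while cluster 2 among them was at 1.6% (1.26–2.0). Positivity at 1 count cannot be told apart from background RNA cell by cell, nor are all higher counts clear of this reference. The share in the interferon-like cluster, 4.37% over both libraries (3.41–5.51), lay above that of the unnamed clusters together, but its interval overlapped that of the choroid plexus-like cells. Cluster 2 had 3 interferon genes among its 20 leading genes and none among its 10 leading ones, and was left unnamed by a rule chosen after seeing the data. Counted with the interferon-like cluster, the share was 143 of 6257 cells (2.29%, 1.93–2.69) against 0.519% (0.444–0.603) of the other unnamed clusters. Cluster 2 was 93.4% female among cells with a called sex, with Xist among its 10 leading genes, and held 58 of the 146 female LEM Ccl5-positive cells. Without it the log2 ratio of the female over the male share was 1.17 (0.73–1.61) in LEM and −0.09 (−0.89 to 0.68) in VEH. After thinning to 2000 counts the share in the interferon-like cluster alone was 2.45%, against 0.434% in all other clusters, cluster 2 among them. Clusters 3, 4 and 5 were mostly of VEH cells and clusters 0, 1 and 2 mostly of LEM cells. With the cluster sizes of both libraries together given to each, the shares were 0.607% and 1.12%, a log2 ratio of 0.88. No interval was made for this ratio, which rests on few cells in these clusters. In LEM, 2 of 151, 0 of 53 and 3 of 435 cells of clusters 3, 4 and 5 were positive. In VEH, 7 of 1784, 7 of 1546 and 8 of 560 cells of clusters 0, 1 and 2 were.

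**Figure D2:**
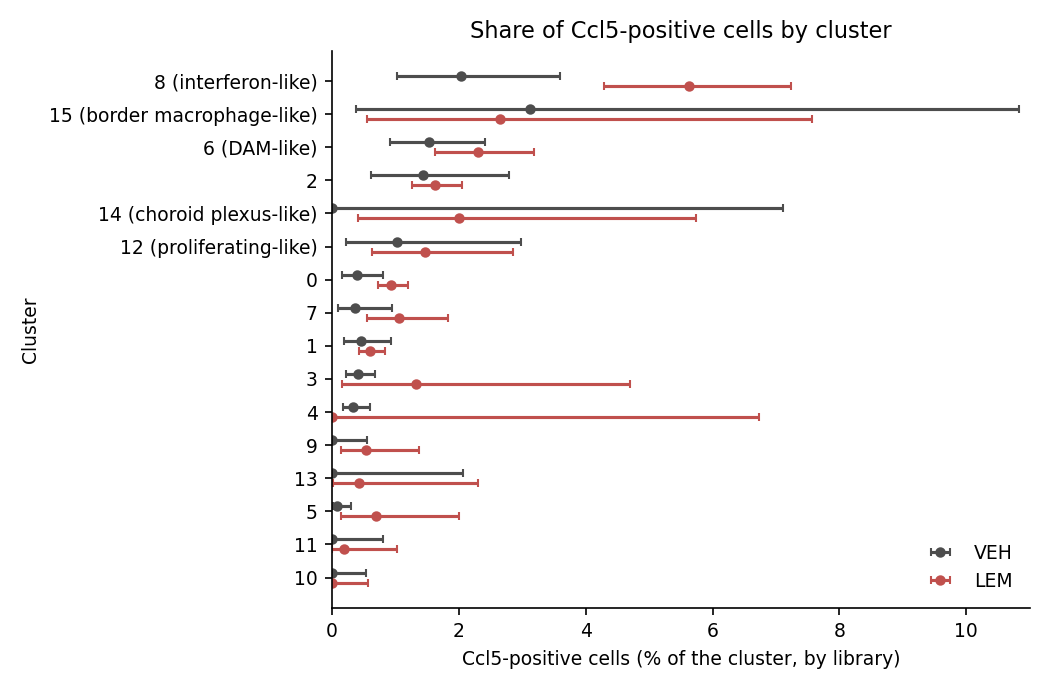
Ccl5-positive cells as a percent of each cluster's cells in VEH (grey) and LEM (red), with exact 95% intervals. The interferon-like cluster stands at 2.03% and 5.63%, and cluster 10 at 0.

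Gene levels in the Ccl5-positive cells were set against Ccl5-negative cells without lymphoid markers, within each library. Ccl5 chose the cells and cells are no replicates, so these ratios describe the cells and no test was made. A gene counted as higher or lower where its ratio was at least 2-fold the same way in both libraries. Of 12547 genes, 205 were higher (1.63%) and 30 were lower (0.239%), and the median log2 ratio of all genes was −0.07 in VEH and −0.03 in LEM. A gene entered where it was counted in at least 1% of either group, and 121 of the 205 entered only through the Ccl5-positive cells, where a high ratio follows from the entry. Among the 11774 genes counted in at least 1% of Ccl5-negative cells, 84 were higher (0.713%) and 29 were lower (0.246%). With the interval also required to lie outside 0 in both libraries, 116 genes were higher and 1 was lower.

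MHC class I levels lay above the Ccl5-negative median in most of the Ccl5-positive cells. MHC class I molecules display peptides from inside the cell, and their genes are interferon targets. Of 11 class I and peptide loading genes, all of them counted in at least 1% of Ccl5-negative cells, 5 were higher, with medians of 0.99 (VEH) and 0.73 (LEM) on the log2 scale. The medians were 0.48 and 0.64 without the interferon-like cluster, and 0.63 and 0.52 with the Ccl5-negative cells weighted to the clusters of the Ccl5-positive cells. The heavy chain gene H2-K1 was at 1064 CPM against 362 CPM in VEH and 1172 CPM against 426 CPM in LEM, log2 ratios of 1.56 (1.45–1.66) and 1.46 (1.41–1.51). H2-D1, the other classical heavy chain gene, was at 1915 against 674 CPM and 1815 against 766 CPM. The nonclassical H2-Q7 was counted in 27.6% and 18.8% of Ccl5-positive cells against 2.82% and 2.79% of the others, and Nlrc5, the class I transactivator, had log2 ratios of 1.51 and 2.05, with −0.17 in VEH cells of 2 or more Ccl5 counts. The peptide transporter gene Tap1 was higher (1.19 and 1.27). The light chain gene B2m stood at 0.99 and 0.73, below 2-fold, and Tapbp at 0.05 and 0.26. The class I difference was spread over most of the cells. The summed list was above the median of Ccl5-negative cells in 93.1% of the VEH cells (81 of 87) and in 87.9% (262 of 298) in LEM. It was above their 95th percentile in 56.3% of the VEH cells (49 of 87) and in 40.9% (122 of 298) in LEM. The median cell had 5917 CPM against 2359 CPM in VEH and 5177 against 2494 CPM in LEM. Without the interferon-like cluster the median cell had 5728 against 2330 CPM and 4698 against 2450 CPM.

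Type I interferon response genes were higher almost as a whole, with the counts in fewer cells. Of 24 genes, 21 were higher, 4 of which (Cmpk2, Cxcl10, Oasl1 and Rsad2) entered only through the Ccl5-positive cells, and the list medians were 2.81 (VEH) and 2.54 (LEM). Without those 4 genes, 17 of 20 were higher and the medians were 2.77 and 2.22. Weighted to clusters, the medians over all 24 were 1.31 and 1.00. In cells with 2 or more Ccl5 counts they were 1.00 and 3.09. Isg15, a ubiquitin-like protein joined to other proteins after interferon, was at 143 against 21.1 CPM in VEH and 188 against 24.2 CPM in LEM, counted in 17 and 69 cells. Irf7, the transcription factor that amplifies interferon production, was at 80.1 against 11.7 CPM and 130 against 14.9 CPM, in 15 and 73 cells. Ifitm3, a membrane protein that restricts virus entry, was counted in 37.9% and 38.9% of Ccl5-positive cells against 7.26% and 10.6% of the others. Ifit3 had log2 ratios of 3.07 (2.78–3.34) and 2.68 (2.51–2.85), and Bst2 (tetherin) 1.70 and 1.48. In Ifit1, 55.6% of the VEH counts came from 1 cell. Stat2, a transducer of the interferon signal, stayed under 2-fold at 0.54 and 0.92, as did Ly6e at 0.88 and 0.68. By cell, the summed list was above the 95th percentile of Ccl5-negative cells in 26.4% of the VEH cells (23 of 87) and in 25.8% (77 of 298) in LEM. It was above their median in 87.4% and 75.8%, and below it in 12.6% and 24.2%. Interferon levels thus varied widely among Ccl5-positive cells. Without the interferon-like cluster, itself drawn partly from these genes, the list medians were 0.84 and 0.75 and the median cell stood at 1182 against 650 CPM in VEH and 1707 against 1149 CPM in LEM.

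**Figure D3:**
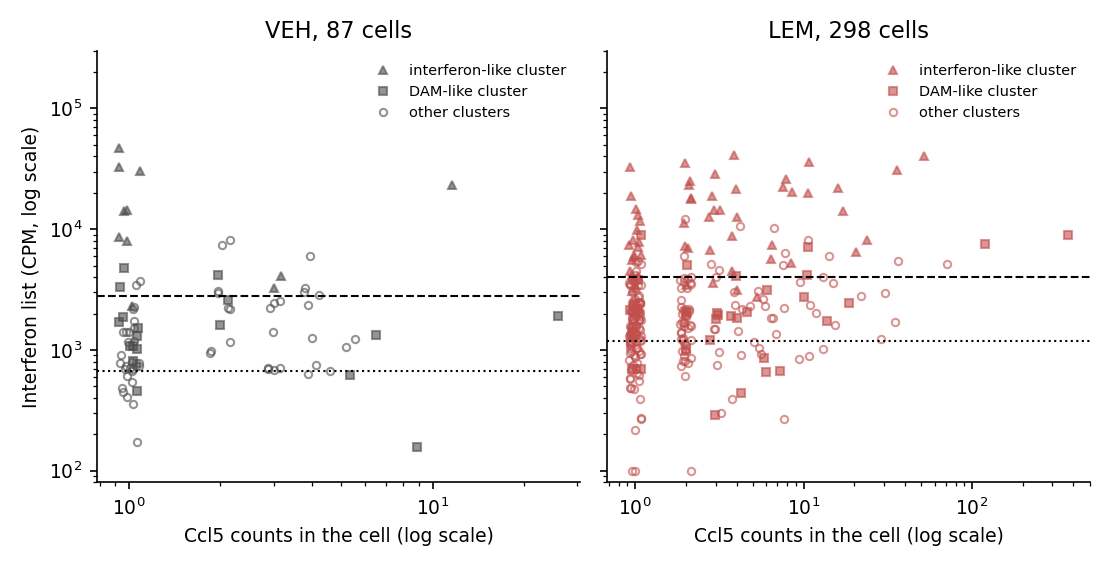
Summed CPM of the 24 type I interferon response genes (log scale, values under 100 drawn at 100) against Ccl5 counts (log scale) in each of the 87 VEH and 298 LEM Ccl5-positive cells, by cluster. The dotted line is the median and the dashed line the 95th percentile of Ccl5-negative cells, and 23 VEH and 77 LEM cells lie above the dashed line.

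Of 13 interferon gamma response genes 7 were higher, 4 of which (Ciita, Cxcl9, Gbp4 and Iigp1) entered only through the Ccl5-positive cells, with medians of 1.3 and 1.39, or 0.25 and 1.88 in cells with 2 or more Ccl5 counts. Among the other 9 genes 3 were higher, with medians of 0.66 and 0.96. Gbp2, a guanylate-binding GTPase, was at 49.4 against 6.05 CPM and 35.7 against 5.45 CPM, though at −0.19 on the log2 scale in LEM without the interferon-like cluster, and Tgtp2, an immunity-related GTPase, had log2 ratios of 3.42 and 2.53. Igtp (1.3 and 0.95) and Irgm1 (0.66 and 0.96) stayed under 2-fold in at least 1 library. Without the interferon-like cluster the summed list stood at −0.04 and 0.16.

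MHC class II genes present peptides taken up from outside, and their list median was larger in VEH (2.23) than in LEM (0.32). With the Ccl5-negative cells weighted to clusters the medians were 0.25 and −0.22. Of 6 genes, 1, Cd74, the invariant chain, was higher in both (1437 against 253 CPM in VEH and 479 against 239 CPM in LEM). H2-Aa was counted in 19 VEH and 20 LEM cells, at 304 against 50.9 CPM and 53.6 against 48.4 CPM, and 30.7% of the VEH counts came from 1 cell. Without the 3 cells of each library with the most class II counts the medians were 0.90 and −0.22, and Cd74 stood at 1.52 and 0.70. By cell, the summed list was above the median of Ccl5-negative cells in 85.1% of the VEH cells (74 of 87) and in 74.5% (222 of 298) in LEM. The median cell had 652 CPM against 177 CPM in VEH and 343 against 160 CPM in LEM. The log2 ratio of the summed list was 0.32 in female and 2.58 in male VEH cells, and −0.0046 and 1.31 in LEM.

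**Figure D4:**
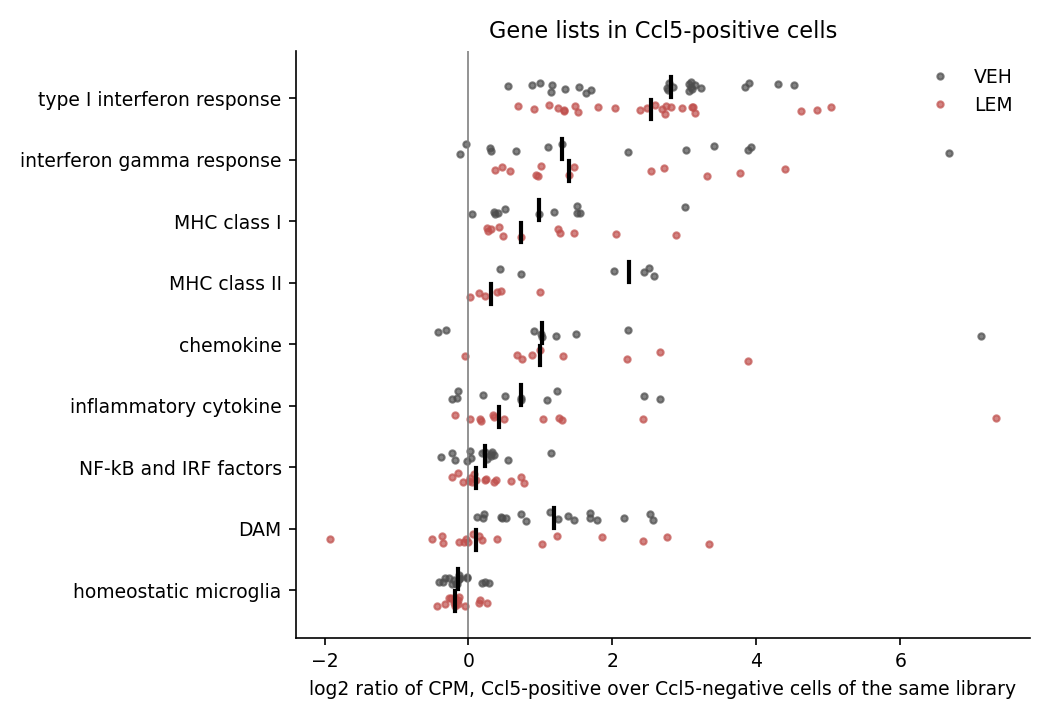
Log2 ratio of CPM of Ccl5-positive over Ccl5-negative cells of the same library, 1 point per gene (VEH grey, LEM red), for 9 gene lists, with black bars at the median of the genes drawn. The type I interferon medians stand at 2.81 and 2.54 and the homeostatic medians at −0.15 and −0.18. Il12b has no VEH point because it had 0 counts in the VEH Ccl5-positive cells.

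Other chemokine genes accompanied Ccl5 in part. Of 9 tested, 3 were higher, with medians of 1.02 and 0.99, or 2 of 7 without Ccl7 and Cxcl13, which entered only through the Ccl5-positive cells. Ccl12, a ligand of CCR2, was at 1232 against 266 CPM in VEH (31.1% of the counts from 1 cell) and 1182 against 257 CPM in LEM, in 59 and 182 cells. Without the interferon-like cluster it was at 402 against 229 CPM in VEH, a log2 ratio of 0.81 and under 2-fold. In LEM it was then at 472 against 224 CPM (1.07), and the list medians were 0.90 (VEH) and 0.52 (LEM). Ccl4 (MIP-1 beta), which draws macrophages and lymphocytes, was at 1444 against 511 CPM and 1142 against 460 CPM, and Ccl3 (MIP-1 alpha), a CCR1 ligand, had log2 ratios of 0.92 and 0.75. Cxcl13, which draws B cells, was counted in 6 VEH and 14 LEM cells, and its log2 ratios were 7.12 and 3.88. Ccr1, a receptor of CCL5, was counted in 1 and 6 cells. The summed list of 4 CCL5 receptor genes was at 400 against 528 CPM in VEH and 504.5 against 551 CPM in LEM.

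The T cell-attracting chemokine gene Cxcl10 came from 10 VEH and 22 LEM cells, with 145 and 587 counts and log2 ratios of 4.52 and 5.04. Of all cells with Cxcl10, 10 of 100 in VEH and 22 of 178 in LEM (12.4%, 7.91–18.1) were Ccl5-positive. Cxcl9, a ligand of the same receptor, was counted in 2 VEH and 15 LEM Ccl5-positive cells, out of 7 and 24 cells with it. Cd40, the receptor through which T cells activate antigen-presenting cells, was counted in 3 and 15 Ccl5-positive cells, with log2 ratios of 6.48 and 6.97. It entered only through the Ccl5-positive cells, so a high ratio follows from its entry. Of the 40 LEM cells with Cd40, 15 were Ccl5-positive (37.5%, 22.7–54.2). Il12b, the p40 chain of interleukin-12 and interleukin-23, was counted in 6 LEM Ccl5-positive cells with 150 counts, of which 48.7% came from 1 cell, and in 0 of 87 VEH cells. All 6 of these droplets also had Cxcl10 and 5 had Cd40, and of the 15 LEM droplets with Cd40, 13 had Cxcl10. Of the 6, 4 held Xist and a Y-linked count, as a droplet with cells of both sexes would, and gave 115 of the 150 Il12b counts, so genes seen together there need not come from 1 cell. Such droplets also gave 361 of the 587 LEM counts of Cxcl10 and 38 of the 65 of Cd40. Without them 2 LEM droplets had Il12b, both with Cxcl10 and 1 with Cd40, and 8 of 10 with Cd40 had Cxcl10. The LEM log2 ratios over Ccl5-negative cells were then 3.84 for Cxcl10 and 6.27 for Cd40. The 10 VEH cells with Il12b were all Ccl5-negative.

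Among inflammatory cytokine genes 3 of 12 were higher, with medians of 0.73 and 0.43, or 2 of 10 without Il12b and Tnfsf9, which entered only through the Ccl5-positive cells. Tnf was counted in 22 and 77 cells, at 76.1 against 35.6 CPM in VEH and 172 against 31.9 CPM in LEM, and 45.6% and 23.0% of the counts came from 1 cell each. Il1b was at 34.7 against 5.50 CPM in 5 VEH cells and at 16.6 against 6.74 CPM in 17 LEM cells. Tnfsf9 had log2 ratios of 2.44 and 1.25 and was counted in 5 and 9 cells. Of the NF-kB and interferon regulatory factor genes, 0 of 15 were higher, with medians of 0.23 and 0.11. Nfkbia, an inhibitor and target of NF-kB, was at 0.55 and 0.35, Relb at 1.15 and 0.24, and Irf1 at 0.31 and 0.73.

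The DAM list had a larger median in VEH (1.19) than in LEM (0.10). Of 18 genes 6 were higher (Lpl, Itgax, Axl, Lgals3, Ch25h and Cybb), of which Ch25h entered only through the Ccl5-positive cells. Axl, a receptor kinase for the clearance of dying cells, was counted in 32.2% and 24.2% of Ccl5-positive cells against 4.70% and 6.31% of the others. Cybb, the catalytic chain of the phagocyte NADPH oxidase, had log2 ratios of 2.52 and 3.34 and was counted in 12 and 35 cells. Itgax, the CD11c integrin chain, was at 65.4 against 25 CPM and 65.2 against 32.0 CPM. Cst7 (cystatin F) was at 351 against 109 CPM in VEH and 71.4 against 91.7 CPM in LEM, and 22.8% of the VEH counts came from 1 cell. Weighted to the clusters of the Ccl5-positive cells, the VEH median of the list was 0.13.

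Most homeostatic genes lay slightly lower than in other cells. None of 17 was past 2-fold, with medians of −0.15 and −0.18. The counting interval was below 0 in 11 genes in VEH and 14 in LEM, and above 0 in 3 in each library, Ctss, C1qa and C1qb. Over all 12547 genes it was below 0 in 1154 (VEH) and 1080 (LEM), and above 0 in 752 and 1080. Intervals of genes with many counts, such as these homeostatic genes, can leave out 0 at small ratios. The summed list was at 60110 against 60420 CPM in VEH and 60690 against 61900 CPM in LEM. P2ry12 was at 3248 against 4294 CPM and 3414 against 4112 CPM, and Tmem119 at 1707 against 2053 CPM and 1833 against 2082 CPM. Immediate early genes of tissue dissociation had medians of −0.17 and −0.11, with Fos at −0.34 and −0.11. The heat shock gene Hspa1b was the 1 gene of 10 that was higher, and 86.3% of its LEM counts came from 1 cell. Of 10 proliferation genes 0 were higher, with a median of −0.42 in VEH, 6 genes of which were at 0 counts and taken at their bound, and 0.71 in LEM. The log2 ratio of the summed proliferation list was −2.8 in VEH and 0.91 in LEM. Of 7 T cell residency and checkpoint genes, 1 was higher, the early activation gene Cd69, from 2 and 8 cells, which entered only through the Ccl5-positive cells, and the checkpoint genes Pdcd1 (0.71 and 0.73) and Lag3 (0.46 and 0.10) were under 2-fold.

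The 10 highest ratios with 1 direction in both libraries and both sexes were those of Cd40, Ifi205, Ifi211, Slfn1, Cxcl10, Oasl1, Cxcl9, Rsad2, Ifi208 and Cd69. All 10 entered only through the Ccl5-positive cells, being counted in under 1% of the others, so their rank follows from the entry and is given as a description. Slfn1 and Ifi205 rested on 1 VEH cell each. Ifi211, of the interferon-induced DNA sensor family, was counted in 5 and 20 cells with log2 ratios of 4.6 and 5.08, and Rsad2 (viperin) in 5 and 18 cells with 4.30 and 4.62. The 10 lowest, led by Pcdh9 and Exoc3l2, had 1 VEH count and at most 6 LEM counts each.

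Levels were also compared across classes of Ccl5 count, as a description. H2-K1 was at 362, 873, 1381 and 1141 CPM in VEH cells with 0, 1, 2 to 4 and 5 or more Ccl5 counts, and at 426, 882, 1186 and 1679 CPM in LEM cells. Cells with a single count of Ccl5 thus already lay above the Ccl5-negative cells of both libraries. Isg15 was higher in each class than in the one before in LEM, at 24.2, 72.1, 217 and 366 CPM, and in VEH was highest at 1 count with 224 CPM, against 25.3 and 60.7 CPM in the higher classes. Ccl12 was also higher from class to class in LEM, from 257 to 2022 CPM. In VEH it had a peak of 1786 CPM at 1 count (1144 CPM without the cell with the most), and was at 526 and 376 CPM in the higher classes. Ccl4 was highest at 5 or more counts in LEM, at 2088 CPM in 59 cells, or 1437 CPM without the cell with the most. In VEH it was at 4443 CPM in the 8 cells of that class, of which 1 cell gave 87.4%, and at 669 CPM without it, below the 1288 CPM at 1 count. P2ry12 was at 4112 CPM at 0 counts and 2745 CPM at 5 or more in LEM, and in VEH it was 4294, 3118, 3782 and 2391 CPM. In LEM, 16.3% of cells with 1 count, 28.6% with 2 to 4 and 44.1% with 5 or more were above the 95th percentile of the interferon list in Ccl5-negative cells. The VEH shares were 22.4%, 36.7% and 12.5%, the last being 1 of 8 cells. Median depth was 6965, 6248.5 and 9981 counts in the 3 LEM classes and 7364, 7291.5 and 11632 in the VEH classes, and its part in these orders was not tested.

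**Figure D5:**
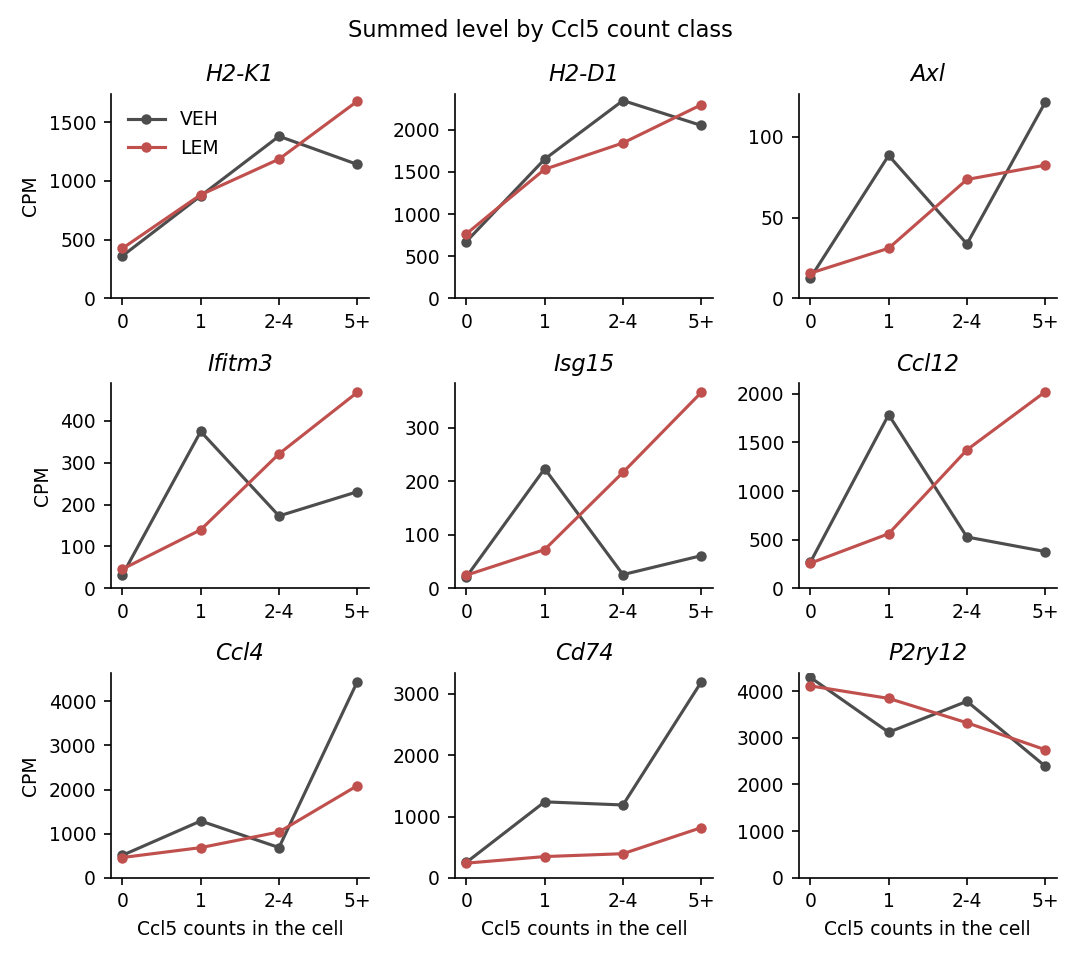
Summed CPM of 9 genes in cells with 0, 1, 2 to 4 and 5 or more Ccl5 counts, VEH grey and LEM red, with no error drawn. H2-K1 and H2-D1 are higher in every positive class than at 0 in both libraries, while Isg15 and Ccl12 are higher from class to class in LEM and peak at 1 count in VEH. In VEH cells of 5 or more counts, single cells gave 87.4% of Ccl4, 85.6% of Cd74 and 94.7% of Ifitm3 counts.

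Last, LEM was compared with VEH within the Ccl5-positive cells, beside the same ratio in Ccl5-negative cells. Of 9863 genes, 245 were at least 2-fold higher in LEM with the interval outside 0 (2.48%) and 81 were lower (0.821%). Of these 326 genes, 28 were also past 2-fold in Ccl5-negative cells and 241 had the same direction there. The same counts over all 9863 genes are not given here, so neither can be read as many or few. The median log2 ratio of all 9863 genes was 0.09 in Ccl5-positive and 0.01 in Ccl5-negative cells. The number of cells was 87 against 298, and 26 of the called genes had 0 counts in 1 library.

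MHC class II genes had lower summed levels in LEM. All 6 had a negative ratio and 4 were called, with a list median of −1.67 against −0.14 in Ccl5-negative cells. Without the 3 cells of each library with the most class II counts the median was −1.18 and 3 were called, and without the border macrophage-like cluster it was −1.73. H2-Aa was at 304 CPM in VEH and 53.6 CPM in LEM, a log2 ratio of −2.51 (−2.83 to −2.19), and without the 10 cells with the most Ccl5 it was −2.51. Cd74 was at 1437 and 479 CPM, a log2 ratio of −1.58 (−1.71 to −1.46), and the cells with a count were 67.8% and 55.0%. A single cell gave 20.9% of its VEH counts, and without those 3 cells of each library its levels were 722 and 388 CPM and its log2 ratio −0.90 (−1.05 to −0.74), under 2-fold. That of H2-Aa was then −2.49. In female cells the list median was −0.28 and in male cells −1.70. The border macrophage-like cluster held 2 VEH and 3 LEM Ccl5-positive cells.

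Of 17 DAM genes 2 were called higher in LEM and 4 lower. Cst7 had a log2 ratio of −2.30 (−2.58 to −2.01), against −0.25 in Ccl5-negative cells, and Fabp5 (−1.98), Csf1 (−1.10) and Ccl6 (−1.10) were the other lower ones. Ccl6 was at −0.76 in Ccl5-negative cells too. Lgals3 (galectin-3) at 2.19 and Cybb at 1.11 (0.89 without the droplets with Xist and a Y-linked count) were higher, and Lgals3 was counted in 3 VEH and 16 LEM cells. The DAM-like cluster held 20.7% of the VEH and 12.1% of the LEM Ccl5-positive cells, and its part in these ratios was not tested.

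Ratios of summed interferon gene levels between the libraries varied with the minimum of the Ccl5 count. Over all Ccl5-positive cells the median of 24 type I genes was 0.25, against 0.20 in Ccl5-negative cells, and Oasl1 was the 1 called, at 1.14 (0.26–2.15). In the 38 VEH and 157 LEM cells with 2 or more Ccl5 counts the median was 2.01 and 19 were called higher in LEM. The interferon-like cluster held 2 of 30 VEH and 22 of 98 LEM cells with 2 to 4 counts, and 1 of 8 and 15 of 59 with 5 or more. By cell, the median of the summed list at 2 to 4 counts was 2298 CPM in VEH and 2046 CPM in LEM. At 5 or more it was 1138 and 3100 CPM. Over all Ccl5-positive cells the median cell had 1404 CPM of the summed list in VEH and 2072 CPM in LEM, against 670 and 1184 CPM in Ccl5-negative cells. Over all Ccl5-positive cells the median of the genes was 1.41 in female and −0.24 in male cells. MHC class I genes had a median of 0.03 and 0 of 11 were called, and homeostatic genes 0.01 with 0 of 17 called. Of 11 cytokine genes, Tnf (1.17, 0.77–1.6) and Il12b were higher and Il1b (−1.06) lower in LEM, but Il1b stood at 1.42 in cells of 2 or more Ccl5 counts and Tnf at 0.28 without the interferon-like cluster. Il12b was at least 3.96 higher on the log2 scale, against a floor of 3 counts in the VEH cells, and at least 1.91 higher without the droplets with Xist and a Y-linked count, where 2 LEM cells had it. Without these droplets Tnf stood at 0.64, under 2-fold. Of 8 chemokine genes, Ccl7 was called higher (2.61, 1.00–4.93), counted in 1 VEH and 11 LEM cells, with 40.7% of the LEM counts from 1 cell. Gbp5 was the 1 interferon gamma response gene called higher, at 1.51 (0.30–3.02), of 11, and stood at 0.87 without the droplets with Xist and a Y-linked count. NF-kB and interferon regulatory factor genes had a median of −0.04 with 0 of 15 called.

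All 8 proliferation genes tested were called higher in LEM, on few cells. Top2a was counted once in VEH and 71 times in 6 LEM cells, and Cdk1 had 4 and 42 counts in 4 and 10 cells. The proliferating-like cluster held 3 of 87 VEH and 8 of 298 LEM Ccl5-positive cells. The highest ratios had 0 or 1 VEH counts, so that no direction within each sex could be read. They included Ttr and Enpp2, which came from 3 LEM cells each, Il1rn, the interleukin-1 receptor antagonist, with 1 VEH and 56 LEM counts (67.9% of the latter in 1 cell, and 42 in 2 droplets with Xist and a Y-linked count), and Adcy8, which was also higher in Ccl5-negative cells, by 2.04 on the log2 scale. The lowest included Pianp, Tubb2b and Cfap77, at −2.62, −2.36 and −2.07, and they stood at −2.06, −2.09 and −1.83 in Ccl5-negative cells.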

How the data were processed

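Per the labels and methods, the authors sorted microglia, made 10x 5′ libraries, used Cell Ranger 8.0.0 with the mm10 build, named SoupX for free RNA, and removed cells by genes, counts and mitochondrial share. They then left out clusters judged non-microglial, and whether the deposited table follows that step is not given. The deposited values are whole-number counts of 32285 genes, with no cell type annotation. Whether SoupX's correction is included is not given in the sources used here. In the table every cell had at least 501 genes and at most 19999 counts. The members and gene lists were chosen with earlier results of these data known. Genes were named from fixed lists, plus the 10 highest and 10 lowest ratios with 1 direction in both called sexes, a sex with 0 VEH counts being taken as higher in LEM. Genes without symbols, Xist and Y-linked genes were not named as results. A few genes of these lists are not reported here. Ratios were taken for genes with at least 20 counts and counted in at least 1% of cells of either group. Where a group had 0 counts, a bound at 3 counts per group was used. Clusters were made in Seurat 5.3.0 (R 4.3.3) with 2000 variable genes, without Ccl5 and the 6 lymphoid genes, 20 principal components, 30 neighbours and a resolution of 0.9. A cluster was named where at least 3 markers were among its 20 leading genes and 1 among its 10 leading. Scrublet (scanpy 1.11.5) marked 0 VEH and 3113 LEM cells at its automatic threshold, so doublets were kept, and an alternative left out the 10% of cells per library with the highest score. The ratio step was tested on counts simulated as independent Poisson draws. That test does not cover counts that gather in few cells. Alternatives covered the Ccl5 count minimum, depth, doublets, sex, clusters, scaling, low-count filters, resolution (0.5 and 1.3), and single cells. Figures used matplotlib 3.10.9, and tables pandas 2.3.3, scipy 1.17.1 and numpy 2.4.6 under Python 3.11.15.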

Additional observations from a re-analysis of the deposited data

Results flagged for a closer look

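In 5 genes of the lists, of which 292 were measured, the ratio of Ccl5-positive over Ccl5-negative cells went opposite ways in the 2 libraries with both counting intervals outside 0. The same count over all 12547 genes is not given here, so 5 cannot be read as many or few. The difference was not tested, since there was 1 library per treatment. Counted over their whole lists, these 5 genes included, ratios were above 0 in 0 of 10 proliferation genes in VEH (6 of them at 0 counts) and 10 of 10 in LEM, and in 18 and 10 of 18 DAM genes. Over all 12547 genes tested, they were above 0 in 4916 (VEH) and 5690 (LEM). In cells with 2 or more Ccl5 counts the proliferation medians were 0.68 in VEH and 1.55 in LEM, with any gene at 0 counts taken at its bound. Such a bound is an upper limit, so the VEH median does not show a higher level. The summed list was at 12.6 CPM in VEH cells with 2 to 4 counts and at 0 CPM with 5 or more, against 64.8 CPM in Ccl5-negative cells. In LEM it was at 60.9 and 442 CPM, against 71.0 CPM. Cst7 had a log2 ratio of 1.68 in VEH and −0.362 in LEM, and Spp1 1.25 and −0.506. With the Ccl5-negative cells weighted to clusters, Spp1 was at −0.19 in VEH. For Trem2 the values were 0.218 and −0.0591, both small. Top2a was at −3.01 in VEH, on 1 count, and at 1.31 in LEM, on 71 counts in 6 cells. Mki67 had 0 counts in the VEH Ccl5-positive cells, with a bound of −1.66, and stood at 0.831 in LEM.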

How the results depend on the processing

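No paired analysis was possible because each treatment was 1 library. The log2 ratio of the Ccl5-positive share, 1.37, was 2.47 at 5 or more counts of Ccl5, 1.77 in female cells, 0.77 in male cells and 0.88 standardised by cluster. The log2 ratio of Ccl5 CPM, 2.54, was 2.29 without the 10 highest cells, 3.67 in female and 1.22 in male cells, and 3.31 and 1.58 in these without their own 10 highest cells. The 235 genes past 2-fold in Ccl5-positive cells became 142 with Ccl5-negative cells weighted to clusters, 59 with a filter of 10% of cells, 113 among genes in at least 1% of Ccl5-negative cells, 138 without the interferon-like cluster and 117 with both intervals outside 0. The share in the interferon-like cluster, 4.37%, was 2.45% after thinning and 2.29% with cluster 2. The other 37 values of these results under an alternative moved by less than their limits, but a like count need not be of the same genes: at 2 or more counts of Ccl5, 86 of the 205 higher genes were shared, and 113 of the 326 genes of LEM over VEH. Among the values of other results under an alternative, 755 moved past their limits, 19 changed sign and 5513 did neither. Without the interferon-like cluster these log2 ratios changed sign: Rtp4 (−0.60), Xaf1 (−0.20), Socs1 (−1.10) and Ccl2 (−1.69) in VEH, and Plac8 (−0.51), Cmpk2 (−0.40), Gbp2 (−0.19), Socs1 (−0.12), Ccl7 (−1.75) and Hspa1b (−1.15) in LEM. At 2 or more counts of Ccl5, they did for Plac8 (−0.0048), Socs1 (−0.75), Nlrc5 (−0.17) and Ccl2 (−1.15) in VEH, and for LEM over VEH in Plac8 (2.66) and Il1b (1.42). With weighting to clusters, they did for Ms4a7 (−0.00046), Spp1 (−0.19) and Rtp4 (−0.074) in VEH. The cause was not tested where fewer cells do not give it. The leave-out of single cells and clusters, the 5-count minimum, the interval and Ccl5-negative detection rules, the doublet rule and the 10-gene naming rule were chosen after seeing the data. No lymphoid-marked comparison could be run, as that group was empty. With 87 VEH cells, genes in few cells were limited by depth and by single cells.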
